A study of Mus musculus with 12 samples.

Results

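Interferon-response genes are the antiviral genes that a cell switches on after interferon binds its receptor. Of these, 48 were followed in cultured mouse myotubes that had all received an adenovirus. They were chosen by name with earlier results of these data known, so the shares of all genes set beside theirs are a description. All 48 were among the 20201 genes of the table, and all 48 reached a mean normalized count of 10 or more, so none was lost to the filter on low values. They comprise 4 transcription factors, 5 sensors of foreign RNA or DNA, 5 genes of the oligoadenylate synthetase (OAS) family, 4 Ifit genes, 5 Mx and guanylate-binding protein (Gbp) genes, 8 genes of ISG15, ubiquitin and ADP-ribose transfer, 11 membrane and other effectors, and 6 genes of antigen presentation.

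The myotubes, multinucleated muscle cells formed by fusion of myoblasts, came from primary myoblasts of mice that carry a floxed Bmal1 gene. Bmal1 (symbol Arntl in the annotation) is the gene of the clock activator that partners CLOCK. RNA was sequenced from 12 libraries, named here by the number in their title. Those numbered 1 to 3 and 7 to 9 are labelled wildtype and 21% O2 (empty control virus, per the study's design text). Those numbered 4 to 6 and 10 to 12 are labelled Bmal1 knockout and 1% O2 for 6 hours (Cre-expressing virus, which excises the floxed part). In both groups the virus had been present for 48 hours before the oxygen step, and all 12 libraries share the floxed allele and an adenovirus. The design text describes both viruses at both oxygen levels, whereas the labels give only these 2 combinations, and no source used here settles which holds for a library. Taken by the labels, genotype, Cre, the virus used (empty or Cre-expressing) and oxygen go together and cannot be told apart. Without an uninfected library among the 12 the response to the virus itself was not measured, nor was the amount of virus that entered each group. Cre reaches only the cells that the virus enters. The sources used here give neither the promoter that drives it nor the number of mice or cultures behind the libraries. The p-values therefore set a difference only against the spread between libraries, and that spread may be technical.

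Depth, as reads assigned to genes, was 6376584 to 12463339 per library. Of these, 2307238 to 5714499 lay outside 8 very abundant genes (mostly non-coding or mitochondrial RNA). A floor of 3 reads equalled 2.12 to 5.85 normalized counts. Myotube 2 had the highest share of genes at 0, 29.6%. As a check of the labels, Arntl ranged from 133 to 179 normalized counts under the wildtype label and from 41.7 to 48.6 under the knockout label. Myotube markers were present in every library, at a sum of 17347 to 21606 over 9 genes in wildtype and 28972 to 32241 in knockout. Blood cell markers were at or near the floor: of 10, 9 were in the table, 7 were at 0 in at least 1 library, and only Cd68 reached a mean of 10.

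Type I interferons signal through the IFNAR1 and IFNAR2 receptor and the kinases JAK1 and TYK2, which activate STAT proteins. STAT2 and IRF9 are parts of a complex that binds the interferon-stimulated response element (ISRE) in the promoters of its target genes. Interferon gamma acts through another element, the gamma-activated site (GAS). Adenovirus carries DNA into the cell, where nucleic acid sensors can start this response, and muscle cells are among the many non-immune cells able to mount it.

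The ISRE is a feature that many members' promoters share. The 250 bases before the start are therefore shown for Rsad2 and 3 Ifit genes, which were all lower in the knockout-labelled libraries, then for Isg15, where ISRE cores run together, and for B2m, which did not pass the test. They are read in the direction of the gene, and capitals mark each match to the ISRE core on either strand (GAAA, any 2 bases and GAAA again, or TTTC, any 2 bases and TTTC on the opposite strand). Sequences and starts are from RefSeq on GRCm38.p6, the assembly known as mm10. Rsad2 (chr12:26456453-26456702, minus strand) had 1 match, 110 to 120 bases before the start. Ifit1 (chr19:34640639-34640888, plus strand) had 2 matches, Ifit3 (chr19:34583279-34583528, plus strand) had 2 and Ifit3b (chr19:34607707-34607956, plus strand) had 2.
Rsad2: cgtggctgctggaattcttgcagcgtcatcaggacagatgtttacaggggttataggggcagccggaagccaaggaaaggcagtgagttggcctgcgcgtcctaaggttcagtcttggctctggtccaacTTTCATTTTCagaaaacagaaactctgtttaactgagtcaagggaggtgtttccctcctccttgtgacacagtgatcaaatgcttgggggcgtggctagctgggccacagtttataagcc
Ifit1: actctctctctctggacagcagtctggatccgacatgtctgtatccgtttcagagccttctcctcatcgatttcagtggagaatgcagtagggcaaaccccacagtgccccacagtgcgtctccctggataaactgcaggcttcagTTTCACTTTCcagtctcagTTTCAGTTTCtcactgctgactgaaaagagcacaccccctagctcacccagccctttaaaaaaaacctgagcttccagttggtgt
Ifit3: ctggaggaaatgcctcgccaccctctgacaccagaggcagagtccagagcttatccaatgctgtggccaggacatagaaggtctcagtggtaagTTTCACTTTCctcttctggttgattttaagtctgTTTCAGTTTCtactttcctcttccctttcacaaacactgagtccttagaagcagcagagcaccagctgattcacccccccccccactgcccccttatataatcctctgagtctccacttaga
Ifit3b: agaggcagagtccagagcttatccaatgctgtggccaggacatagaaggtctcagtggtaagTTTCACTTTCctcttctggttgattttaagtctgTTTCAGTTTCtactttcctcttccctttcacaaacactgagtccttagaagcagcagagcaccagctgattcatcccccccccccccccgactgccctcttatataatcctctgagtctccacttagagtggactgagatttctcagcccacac

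The Ifit3 and Ifit3b windows were near copies: shifted by 32 bases, 188 of 218 bases (86.2%) were identical, and both ISRE matches stood in each. Isg15 (chr4:156200819-156201068, minus strand) had 3 matches that overlap in a single run, and B2m (chr2:122147437-122147686, plus strand) had 1.
Isg15: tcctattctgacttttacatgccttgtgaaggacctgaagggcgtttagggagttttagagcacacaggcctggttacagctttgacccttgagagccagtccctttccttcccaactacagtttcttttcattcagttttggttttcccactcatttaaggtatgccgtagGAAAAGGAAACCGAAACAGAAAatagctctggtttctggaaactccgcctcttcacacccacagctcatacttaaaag
B2m: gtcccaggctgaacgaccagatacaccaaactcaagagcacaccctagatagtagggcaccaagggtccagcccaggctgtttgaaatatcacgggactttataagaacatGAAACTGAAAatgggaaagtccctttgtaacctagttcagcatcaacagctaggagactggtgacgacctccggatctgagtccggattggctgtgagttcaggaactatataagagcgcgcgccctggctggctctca

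RefSeq promoters of 300 bases (250 before and 50 after the start) were matched for 38 of the 48 members. The ISRE core stood in 18 of the 38 (47.4%), against 3.99% of the 27025 genes with such a window. Among the members lower in the knockout-labelled libraries it stood in 11 of 20 (55%), and among the other members in 7 of 18 (38.9%). The GAS letters TTCNNNGAA stood in 9 of 38 (23.7%), against 9.55% of genes, and the E-box CACGTG, the motif that CLOCK and BMAL1 bind, in 1 of 38 (2.63%, Trim25), against 8.09%. Both strands were searched, and neither the ISRE core nor the GAS letters contain the other, though matches may overlap in part. These are letters in a window, and binding was not measured. Of the members with the widest differences below, Ifit2 and Oasl1 held no ISRE core in this window.

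Between the labels, 27 of the 48 members (56.25%) were lower in the knockout-labelled libraries at an adjusted p under 0.05, none was higher, and 21 did not pass. Of all 12553 genes tested, 9.07% were lower and 10.2% were higher. The median difference over the members, knockout minus wildtype on the scale of log2(normalized count + 1), was -0.33, against -0.00147 over all genes, and it lay below 0 for 44 of the 48. In 15 members (31.2%) every knockout-labelled library lay below every wildtype-labelled one, which held for 5.38% of all genes; in no member did every one lie above, as in 7.07% of all genes. Lower by 2-fold or more were 5 of the 48 members (Mx2, Mx1, Rsad2, Ifit2 and Oasl1), against 2.24% of all genes. In such bulk RNA, fewer responding cells and less RNA per cell cannot be told apart. With the 8 abundant genes left out of the scaling, all genes shifted by -0.165 and 2201 were lower and 613 higher, in place of 1139 and 1277, and with upper-quartile scaling 1037 were lower and 750 higher. The members' median relative to that of all genes was -0.33 under both, since a library-wide factor moves all genes by about the same amount. With quantile scaling, which is not such a factor, it was -0.42. With the title set as a covariate, 32 members were lower and none higher, against 14.2% of all genes lower (1785 lower and 2000 higher).

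**Figure D1:**
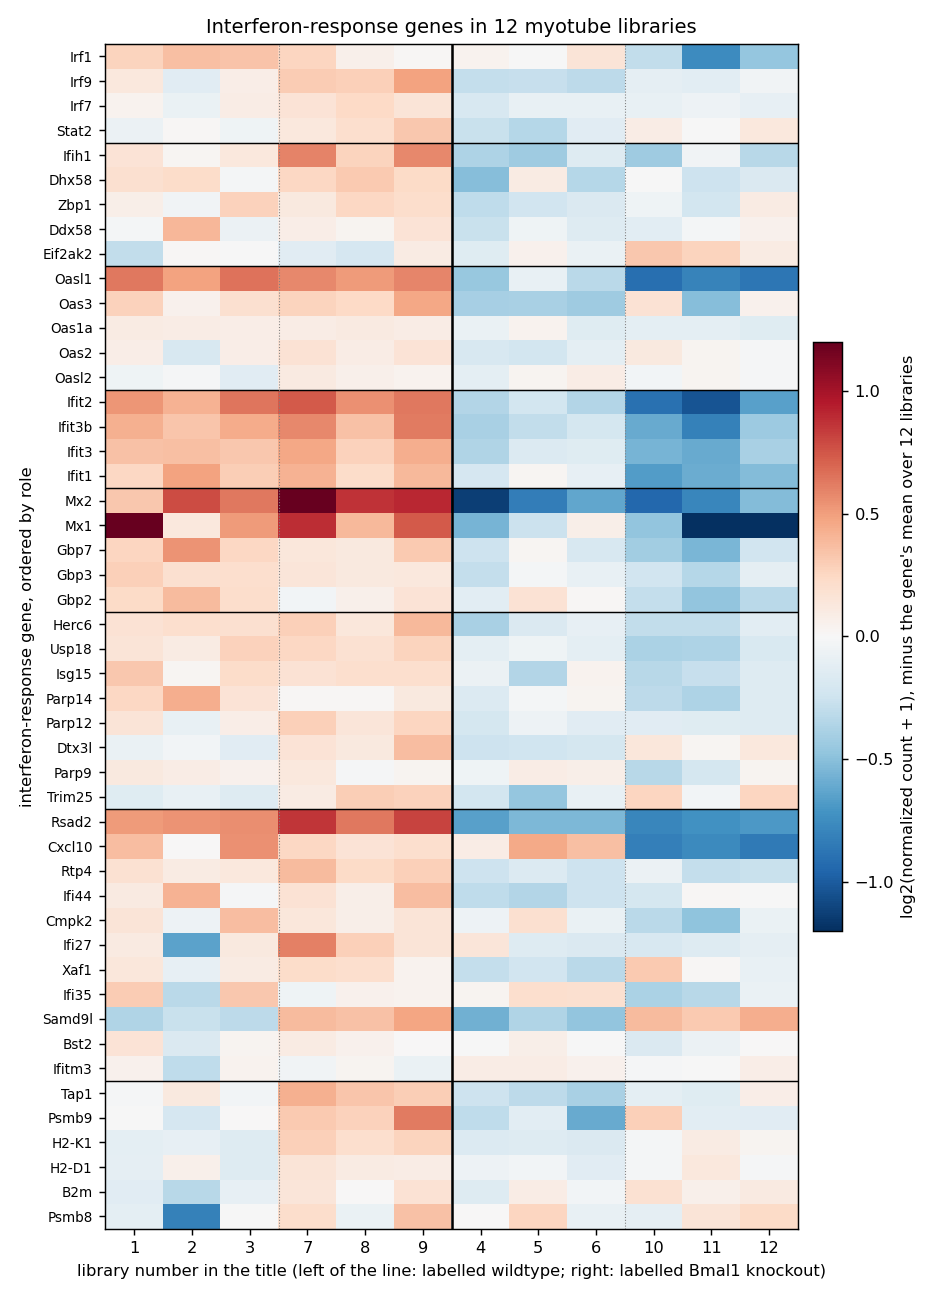
Level of each of the 48 interferon-response genes in each of the 12 libraries, as log2(normalized count + 1) minus the gene's mean over the 12 libraries (red above, blue below). Genes are ordered by role, the 6 wildtype-labelled libraries stand left of the thick line and the 6 knockout-labelled ones right of it; Ifit2, Ifit3, Ifit3b, Mx2 and Rsad2 are red on the left and blue on the right in every library.

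As a whole the members took 1.31% to 1.44% of the reads outside the abundant genes in the wildtype-labelled libraries. In the knockout-labelled ones they took 0.951% to 1.04%, with no overlap. On this scale, without the abundant genes, the median log2 difference was -0.165 over all genes and -0.50 over the members. Per kilobase of exon, where levels of different genes can be compared, the mean over 12 libraries ran from 19.1 normalized counts (Mx1) to 5771 (B2m), with a median of 188. After B2m came Ifitm3 (3543), Bst2 (1755), Isg15 (1391) and Ifit3 (1329.6).

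Among the transcription factors, 3 of 4 were lower. Irf9, the DNA-binding part of that complex, lay at 457, 379 and 441 normalized counts in myotubes 1 to 3 and at 515, 509 and 584 in 7 to 9. Its knockout-labelled values were 343, 345 and 336 in myotubes 4 to 6 and 386, 381 and 406 in 10 to 12. Within each set of titles all knockout-labelled values lay below the wildtype-labelled ones, and the groups overlapped only across sets. Mean normalized counts were 481 ± 70.7 in wildtype and 366 ± 28.7 in knockout (SD, n = 6 each), and the log2 difference was -0.38 (SE 0.0993, limma adjusted p = 0.0152).

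Irf7, which drives interferon genes once virus has been sensed, lay at 1547, 1426 and 1599.5 normalized counts in myotubes 1 to 3 and at 1692, 1776 and 1673 in 7 to 9. The knockout-labelled values were 1321, 1419.6 and 1415 in 4 to 6 and 1417, 1439 and 1409 in 10 to 12, so that the groups overlapped only at myotube 2. The log2 difference was -0.20 (SE 0.0603, limma adjusted p = 0.0301), a fall of 1.15-fold. Irf1, a transcription factor gene induced early by interferon, lay at 306, 327 and 321 normalized counts in myotubes 1 to 3, at 304, 264 and 256 in 7 to 9, at 261, 253 and 283 in 4 to 6, and at 207, 149.8 and 184 in 10 to 12. Myotubes 4 to 6 overlapped the wildtype-labelled range and 10 to 12 lay below it. Irf1 was just inside the threshold (log2 difference -0.44, SE 0.145, limma adjusted p = 0.0497), as was Gbp2 (-0.34, adjusted p = 0.0457), and Cmpk2 was the next outside it (-0.28, adjusted p = 0.0962). Not every single library could be left out without loss of these calls: the call of Irf1 was lost without any 1 of myotubes 1, 2, 3, 7, 8, 9, 10, 11 or 12 (adjusted p up to 0.102), that of Gbp2 without 1, 2, 3, 4, 8, 9, 10, 11 or 12 (up to 0.0942), and that of Irf7 without 3, 4, 6, 7, 8, 9 or 12 (up to 0.0683). Conversely, Cmpk2 passed without myotube 5 (limma adjusted p = 0.0352).

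Stat2, the partner of Irf9, lay at 1170.1, 1244 and 1187 normalized counts in myotubes 1 to 3 and at 1023, 968 and 1122 in 4 to 6. It lay at 1347, 1411 and 1535 in myotubes 7 to 9 and at 1308, 1222 and 1343 in 10 to 12. The knockout-labelled values were the lower ones within each set of titles, and the difference over all 12 libraries did not pass (-0.18, SE 0.0967, limma adjusted p = 0.228). With the title set as a covariate it passed (adjusted p = 0.0185).

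**Figure D2:**
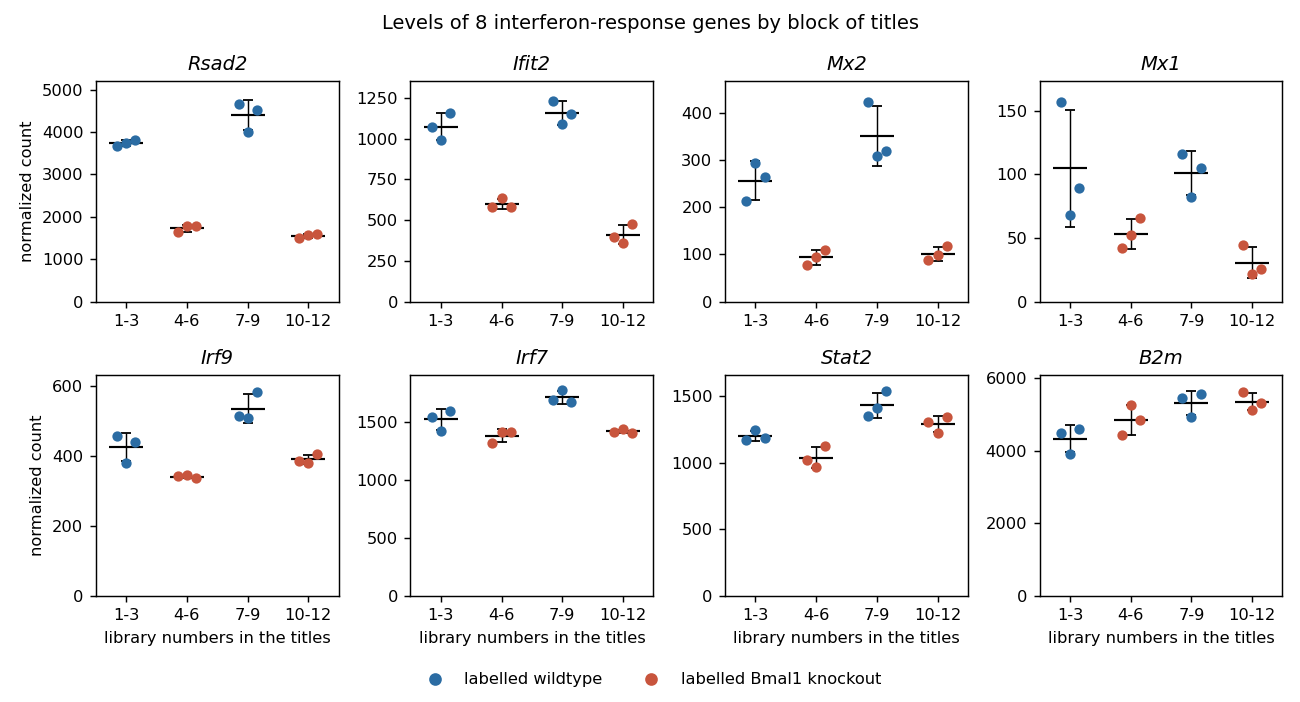
Normalized counts of 8 members in the 4 blocks of titles, 3 libraries each (points; horizontal line, mean; bar, 1 SD), with every axis starting at 0. Rsad2, Ifit2 and Mx2 separate by label in both sets of titles, Irf9, Irf7 and Stat2 by smaller steps, and B2m does not separate by label.

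Of the sensors, 3 of 5 were lower. Ifih1, which encodes the RNA sensor MDA5, had means of 1116 ± 189.6 and 739 ± 82.9 normalized counts (SD, n = 6 each), and no knockout-labelled library (highest 873) reached the lowest wildtype-labelled one (917). Its log2 difference was -0.58 (limma adjusted p = 0.00208). Dhx58, which encodes the regulator LGP2, differed by -0.40 (limma adjusted p = 0.0158) and Zbp1, a sensor of Z-form nucleic acid, by -0.29 (adjusted p = 0.022; 0.0505 without myotube 3 and 0.0513 without myotube 4). Ddx58, which encodes RIG-I, did not pass (1068 ± 133 and 932 ± 72.1 normalized counts; adjusted p = 0.135). Eif2ak2, the kinase PKR that halts translation on double-stranded RNA, had the highest difference of all members, 0.17, and did not pass either (689 ± 70.4 and 779 ± 101 normalized counts; limma adjusted p = 0.243).

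The OAS genes, whose active enzymes make the oligoadenylates that switch on RNase L, were unlike each other. Oasl1, a member without that enzyme activity, was lower by 2.22-fold: 1217 to 1371 normalized counts (median 1303) in the wildtype-labelled libraries and 464 to 817 (median 566) in the knockout-labelled ones (log2 difference -1.15, limma adjusted p = 4.24e-05). It was singled out after its values were seen. Oas3 was lower by 1.41-fold (log2 difference -0.50, limma adjusted p = 0.0128). Oas1a was lower by 1.14-fold, from 375 ± 2.94 to 329.6 ± 16.2 normalized counts (SD, n = 6 each; limma adjusted p = 0.0384), a call that was lost without any 1 library other than myotubes 2 and 5 (adjusted p up to 0.0801). Oas2 (453 ± 39.2 and 413 ± 38.4 normalized counts; adjusted p = 0.309) and Oasl2 (1298 ± 77.2 and 1294 ± 64.3; adjusted p = 0.979) did not pass.

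All 4 Ifit genes, which encode proteins that bind viral RNA and block its translation, were lower, and in each of them the groups did not overlap. Ifit2 lay at 1072, 993 and 1155 normalized counts in myotubes 1 to 3 and at 1232, 1088 and 1148 in 7 to 9. It lay at 582, 636 and 583 in myotubes 4 to 6 and at 398, 362 and 473 in 10 to 12. The highest knockout-labelled library was thus well under the lowest wildtype-labelled one, and the log2 difference was -1.17 (SE 0.131, limma adjusted p = 4.25e-05). Ifit3b differed by -0.91 (856 ± 70.7 and 457 ± 66.3 normalized counts), Ifit3 by -0.74 (2894 ± 143 and 1746 ± 232) and Ifit1 by -0.69 (2411 ± 172 and 1520.5 ± 307). The limma adjusted p of these 3 were 3.36e-05, 4.53e-05 and 0.000981. Ifit3 and Ifit3b are near-identical copies between which reads were divided by estimate; their summed normalized counts ran from 3497 to 4009.6 and from 1826 to 2565, a ratio of means of 1.70.

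All 5 Mx and Gbp genes were lower. Mx2, an antiviral dynamin-like GTPase, had the largest fall of all members, and GENCODE lists it as a polymorphic pseudogene. It lay at 212, 293 and 263 normalized counts in myotubes 1 to 3, at 423, 308 and 318 in 7 to 9, at 76.6, 94.6 and 109 in 4 to 6, and at 87.7, 98.0 and 117 in 10 to 12. The groups did not overlap, and the log2 difference was -1.61 (SE 0.152, limma adjusted p = 1e-05), a fall of 3.06-fold. Mx1, its neighbour and relative, lay at 157, 68.1 and 89.7 normalized counts in myotubes 1 to 3, at 116, 82.1 and 105 in 7 to 9, at 42.0, 52.3 and 65.7 in 4 to 6, and at 44.8, 21.4 and 25.7 in 10 to 12. Its groups were separated only by the small gap between myotubes 2 and 6, and the log2 difference was -1.32 (SE 0.272, limma adjusted p = 0.00373). The guanylate-binding GTPases Gbp7 (-0.54, 1.45-fold), Gbp3 (-0.36, 1.28-fold) and Gbp2 (-0.34, 1.26-fold) had smaller differences on the log2 scale, with limma adjusted p of 0.00178, 0.00231 and 0.0457.

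Of the genes of ISG15, ubiquitin and ADP-ribose transfer, 5 of 8 were lower, with log2 differences between -0.46 and -0.28. Isg15, the ubiquitin-like modifier, lay at 1188 ± 79.3 and 916 ± 104 normalized counts (SD, n = 6 each; log2 difference -0.38, limma adjusted p = 0.00424). Herc6, its ligase in the mouse, differed by -0.46 (adjusted p = 0.000877), and Usp18, which removes ISG15 and restrains the receptor, by -0.41 (adjusted p = 0.00149). The ADP-ribosyltransferases Parp14 (-0.33) and Parp12 (-0.28) were lower as well, with limma adjusted p of 0.0193 and 0.0105. Trim25 (751 ± 108 and 707 ± 134 normalized counts), Dtx3l (958 ± 129 and 870.4 ± 113) and Parp9 (689 ± 24.3 and 631 ± 71.9) did not pass. Parp9 and Dtx3l overlap on opposite strands, and the sources used here do not say whether the counting used strand.

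Among the 11 membrane and other effectors only Rsad2, Rtp4 and Ifi44 were lower. Rsad2 encodes viperin, an enzyme that makes a chain-terminating nucleotide. It lay at 3675, 3748 and 3804 normalized counts in myotubes 1 to 3 and at 4665, 4001 and 4527 in 7 to 9. It lay at 1641, 1779 and 1774 in myotubes 4 to 6 and at 1501, 1561 and 1598 in 10 to 12. Replicates were close and the groups lay far apart, with a log2 difference of -1.31 (SE 0.0751, limma adjusted p = 1.97e-07), a fall of 2.47-fold. Its genomic neighbour Cmpk2, a nucleotide kinase with an interferon response of its own, did not pass over all libraries (415 ± 41.0 and 344 ± 55.5 normalized counts). Within titles 7 to 12 Cmpk2 was lower (log2 difference -0.42, limma adjusted p = 0.0405), and within titles 1 to 6 it did not pass (-0.14, adjusted p = 0.482). Rtp4 differed by -0.43 (limma adjusted p = 0.000563) and Ifi44 by -0.37 (adjusted p = 0.0126).

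For the abundant membrane proteins the difference did not pass the test. Ifitm3, which blocks fusion of viruses in endosomes, lay at 2326 ± 206 and 2478 ± 80.0 normalized counts (SD, n = 6 each; adjusted p = 0.355), and Bst2, the tetherin that holds budding virus at the surface, at 1618 ± 125 and 1552 ± 89.1 (limma adjusted p = 0.608). The sign of the Ifitm3 difference (0.10) turned with quantile scaling and with the abundant genes left out. Samd9l, a translation inhibitor and one of the 4 members of highest mean, lay at 2065, 2198 and 2129 normalized counts in myotubes 1 to 3, at 1778, 2064 and 1909.7 in 4 to 6, at 3452, 3381 and 3665 in 7 to 9, and at 3437, 3294 and 3585 in 10 to 12. Its values separated by set of titles and not by label (log2 difference between labels -0.09, limma adjusted p = 0.828). Xaf1, Ifi35 and Ifi27 did not pass, with log2 differences of -0.20, -0.12 and -0.21, although Xaf1 passed without myotube 10 (limma adjusted p = 0.0435) and Ifi27 without myotube 2 (adjusted p = 0.0231).

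Of the antigen presentation genes only Tap1, the peptide transporter, was lower (798 ± 106 and 615 ± 72.7 normalized counts; log2 difference -0.37, limma adjusted p = 0.0192). B2m, the light chain of class I molecules and the member of highest level, lay at 4488, 3910.4 and 4609.8 normalized counts in myotubes 1 to 3, at 4429, 5254 and 4841 in 4 to 6, at 5447, 4938 and 5571 in 7 to 9, and at 5611, 5136 and 5318 in 10 to 12. The groups overlapped over nearly their whole range (log2 difference 0.08, limma adjusted p = 0.577), and the sign turned under 3 alternatives, with quantile scaling taking it past the threshold in the lower direction (-0.26, adjusted p = 0.037). H2-K1, a class I heavy chain, lay at 2221, 2244 and 2157 in myotubes 1 to 3, at 2152, 2157 and 2133 in 4 to 6, at 2936, 2759 and 2899 in 7 to 9, and at 2361, 2579.9 and 2465 in 10 to 12. Myotubes 1 to 6 were nearly level (log2 difference -0.04, limma adjusted p = 0.647), whereas 10 to 12 lay below 7 to 9 (-0.21, adjusted p = 0.0158). Over all libraries the difference of -0.13 did not pass (limma adjusted p = 0.396). H2-D1, Psmb9 and Psmb8 did not pass, at -0.05, -0.34 and 0.15. Class I heavy chain genes share reads with near-identical copies, and Psmb9 and Tap1 overlap on opposite strands, so their levels are uncertain.

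**Figure D3:**
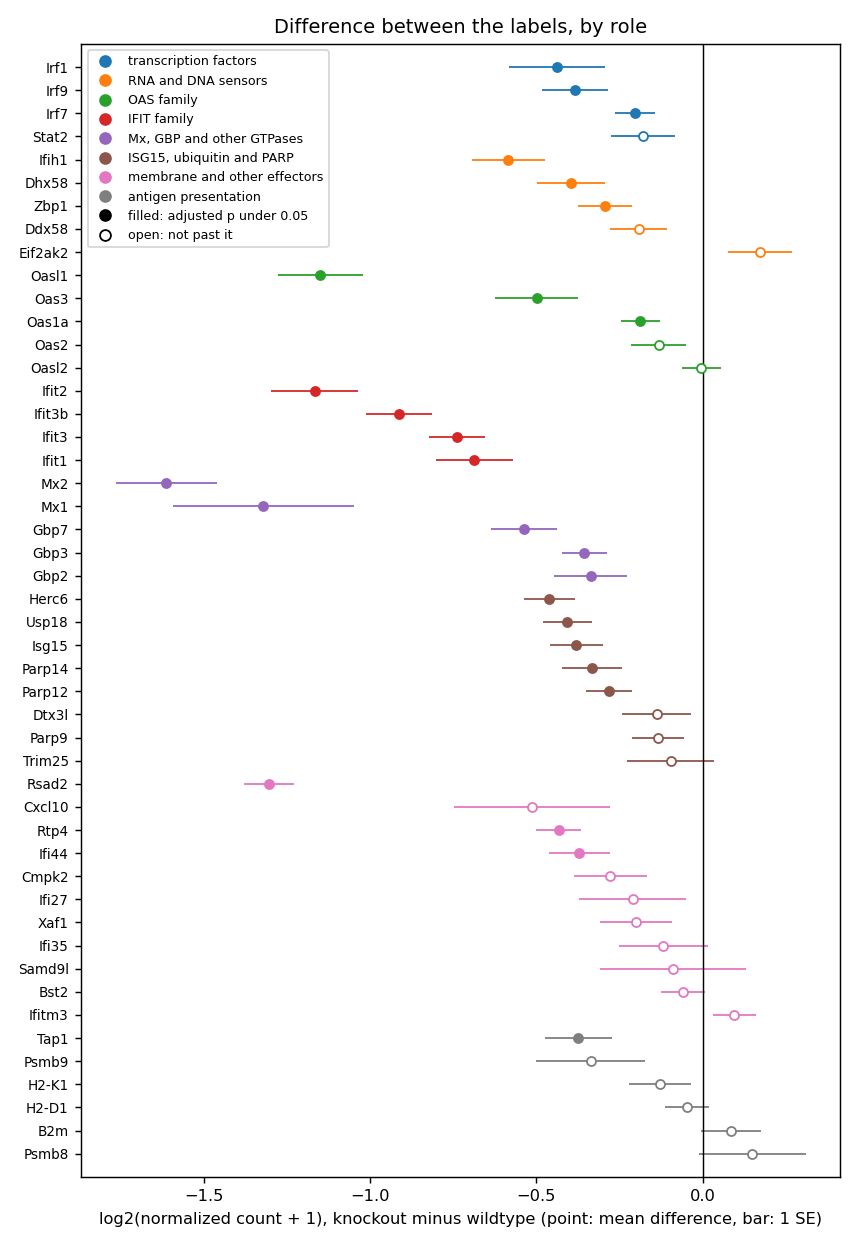
Difference between the labels for each member, knockout minus wildtype, in log2(normalized count + 1) (point, mean difference; bar, 1 SE; 6 libraries a group), coloured by role and filled where the limma adjusted p was under 0.05. The filled points all lie left of 0, and among the antigen presentation genes 1 of 6 is filled.

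The libraries fall into 2 sets of titles, 1 to 6 and 7 to 12, each with 3 libraries of each label, and the labels do not say how the sets differ. Since the design text has more conditions than the labels, the sets may differ in a condition such as oxygen, which the labels do not give, and no condition was assigned to them. Among titles 1 to 6, 19 members were lower and none higher, against 7.97% of all genes lower and 10.8% higher. Among titles 7 to 12, 25 were lower and none higher, against 7.64% of all genes lower and 8.84% higher. Without myotube 1, 2 or 9, and with library weights on all 12 libraries, the sensor kinase gene Eif2ak2 passed as higher in titles 7 to 12. Both sets called 16 members lower, as they did 4.18% of all genes, and in 40 members the difference lay below 0 in both, as in 35.6% of all genes. Of 48, 35 had the lower value in titles 7 to 12, as did 51.7% of all genes. In titles 7 to 12 the members' median log2 difference was -0.39, compared with -0.27 in titles 1 to 6. Both sets rest on 3 libraries a label, while the spread used in the tests was estimated over all 12 libraries. Without myotube 4 the count for titles 1 to 6 was 12, and that of all genes lower was 668 in place of 1001. The count of all genes lower in titles 7 to 12 ran from 501 (without myotube 7) to 1417 (without myotube 2) in place of 959. Myotube 2 belongs to titles 1 to 6 and enters the comparison within titles 7 to 12 only through that shared spread. The split of all genes into lower and higher moved with the scaling: from 1001 and 1357 to 2301 and 712 in titles 1 to 6, and from 959 and 1110 to 1830 and 534 in titles 7 to 12, with the abundant genes left out. With upper-quartile scaling it moved to 603 and 1048 in titles 1 to 6, where all genes shifted by 0.064 and 9 members were lower in place of 19. It moved to 1058 and 315 in titles 7 to 12 with the same scaling, under which all genes shifted by -0.13 there. The members' median relative to them, which a library-wide factor hardly moves, was -0.39.

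The difference between the sets was tested as an interaction of label and set. No member passed by limma (1 gene of all, 0.00797%) or by edgeR, and DESeq2 called 4 (29 of the 11814 genes it adjusted, 0.245%). At an unadjusted p under 0.05, 10 members (20.8%) differed between sets by limma, against 8.52% of all genes. The 4 called by DESeq2 were Cxcl10 (adjusted p = 0.00467), Ifit2 (0.0137), Oasl1 (0.0441) and Ifit1 (0.0441), named after their values were seen. Cxcl10, a chemokine that draws T cells, lay at 398, 308 and 449 normalized counts in myotubes 1 to 3 and at 326, 421 and 394 in 4 to 6. It lay at 365, 345 and 355 in myotubes 7 to 9 and at 174, 180.3 and 171 in 10 to 12. The labels overlapped among titles 1 to 6 (log2 difference -0.01, limma adjusted p = 0.97) and were well apart among titles 7 to 12 (-1.02, adjusted p = 0.000284). By limma the difference of the differences, -1.01, had an adjusted p of 0.214. For Ifit2 the log2 differences were -0.84 and -1.50, for Oasl1 -0.88 and -1.42, and for Ifit1 -0.43 and -0.94, in titles 1 to 6 and 7 to 12.

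**Figure D4:**
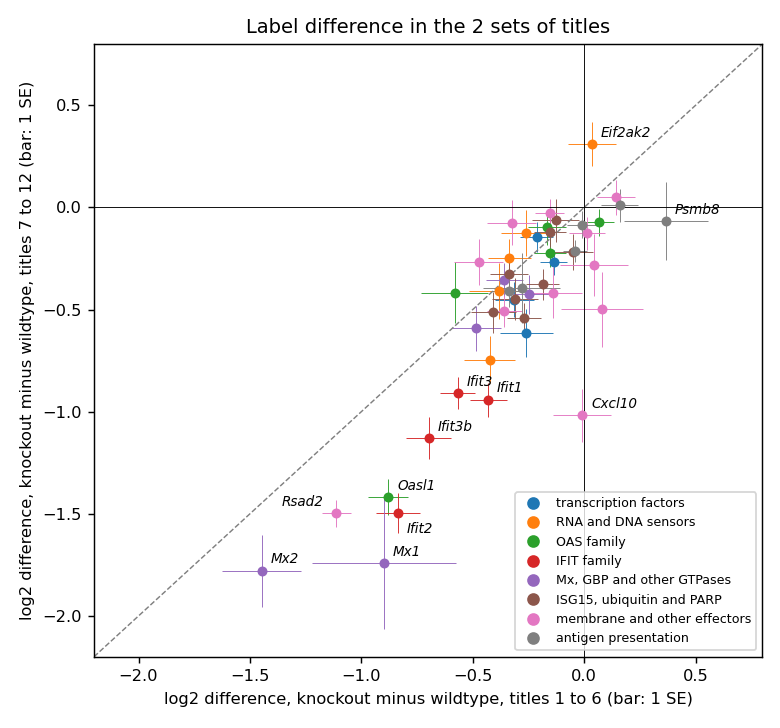
Difference between the labels (knockout minus wildtype, log2(normalized count + 1)) among titles 1 to 6 (horizontal axis) and 7 to 12 (vertical axis) for the 48 members, coloured by role (bars, 1 SE; dashed line, equal differences). Most members lie left of and below 0, 35 of 48 lie below the dashed line, and Cxcl10 stands at -0.01 and -1.02.

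The sets of titles also differed in level. In 4 members (8.33%: Samd9l, H2-K1, Trim25 and Dtx3l) all of titles 7 to 12 lay above all of titles 1 to 6, as in 7.79% of all genes, and in none did they lie below, as in 4.65%. For Samd9l the ratio of titles 7 to 9 over 1 to 3 was 1.64 and that of 10 to 12 over 4 to 6 was 1.79, the highest of these ratios among the members in both labels; the lowest in knockout was that of Cxcl10, 0.46. These ratios are given as a description, with no test.

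The genes around the members in the pathway were counted from lists that hold no member, and of all genes tested 9.07% were lower and 10.2% higher. Of 21 interferon genes 2 were in the table, Ifnb1 and Ifnz, and both stayed near the floor, at levels too low to be tested. Ifnb1 reached at most 3.52 normalized counts. It was listed at 0 in 5 of the 6 knockout-labelled libraries and in 1 of the 6 wildtype-labelled ones. Ifnz went the other way, with means of 1.01 normalized counts in wildtype and 2.18 in knockout. Of 6 receptor genes 5 were tested and none passed, and the median log2 difference was 0.10. Of 7 negative regulators tested, the phosphatase gene Ptpn2, whose product acts on JAK1, was lower (176 ± 22.6 and 96.6 ± 11.3 normalized counts; -0.86, adjusted p = 0.000162), and the phosphatase gene Ptpn11 was higher (0.50, limma adjusted p = 0.0046).

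Of 17 sensors and adaptors outside the members 2 were lower (11.8%, against 9.07% of all genes) and none was higher. The 2 were Tlr2 (-0.76, limma adjusted p = 0.0312) and Tlr3, a receptor of double-stranded RNA (-0.43, adjusted p = 0.026). The call of Tlr2 was lost without any 1 of myotubes 1, 5, 7, 10, 11 or 12, and that of Tlr3 without 3, 7, 9 or 12, with adjusted p up to 0.0951 and 0.0582 over all alternatives. Among 54 further interferon-stimulated genes 11 (20.4%, against 9.07% of all genes) were lower and 3 (5.56%, against 10.2%) higher, with a median log2 difference of -0.14. The lowest were Ddx60, a helicase related to the RNA sensors (477 ± 46.7 and 241 ± 48.2 normalized counts; -0.996, adjusted p = 8.72e-05), Tmem140 (-0.76, adjusted p = 0.000206) and Oas1b (-0.72, adjusted p = 0.0133) by limma. Against the direction of the members, Gbp4 (76.9 ± 13.4 and 137 ± 22.9 normalized counts; 0.83, limma adjusted p = 0.000869), Gbp9 (0.63, adjusted p = 9.96e-05) and Ifitm2 (0.42, adjusted p = 0.0114) were higher, and in each of these 3 the groups did not overlap.

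Of 14 further genes of class I antigen presentation none was lower over all 12 libraries and 2 were higher (14.3%, against 10.2% of all genes). The 2 were Psme1, a proteasome activator subunit (0.31, limma adjusted p = 0.0183), and the chaperone gene Calr (0.21, adjusted p = 0.0187), whose sign turned with quantile scaling (-0.12). Within the sets of titles the heavy chain genes H2-Q4, H2-Q6 and H2-Q7, whose reads near-identical copies may share, were lower in both, and H2-T23 was lower in titles 7 to 12, which makes 3 and 4 of the 14; Psme2 was higher in titles 1 to 6, and Canx and Calr were higher in titles 7 to 12. Of 18 tested genes of the NF-kB and inflammatory response only Tnf passed, as lower (5.56%, against 9.07% of all genes). Tnf lay at 16.2 ± 8.36 and 4.55 ± 3.77 normalized counts (-1.81, limma adjusted p = 0.0164), levels near the floor. By median log2 difference these lists lay at -0.03 and -0.14, against -0.33 for the members.

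Other features of the cultures moved with the label beside these genes. Summed over its markers, the endothelial list ran from 956 to 1076 normalized counts in wildtype and from 1240 to 1549 in knockout, and 2 of 6 genes (Pecam1 and Cdh5) were higher. The myoblast list ran from 398 to 486 and from 261 to 361, with Myf5, Myod1 and Msc lower. The myotube list, given above, was higher in the knockout-labelled libraries for 5 of 9 genes (Mymk, Acta1, Ckm, Tnnt3 and Des) and lower for Myog and Ttn. The fibroblast list overlapped, from 84035 to 99088 and from 81263 to 112815, with 1 of 7 genes (Dcn) lower. The blood cell list, summed at 24.1 to 39.4 and 29.2 to 64.8, had its defining marker Ptprc at 0 or near 0 in all libraries. The part of the other lists in the interferon-response differences was not tested.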

How the data were processed

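Per the labels' protocols, 12 libraries were made from total RNA of primary mouse myotubes with a kit that keeps strand. Per the submitters' processing notes, the authors used Trimmomatic 0.33, STAR 2.5.2 on mm10, RSEM 1.3.3 and DESeq2. The sources used here name neither the annotation nor the strand setting of the counting. The deposited values are a signal, normalized counts in 1 column per library. Each column holds whole counts over a library-wide factor (100% of values whole within 1e-06 reads). Taking out that factor gave the reads used for depth and for count tests. They are reads assigned to genes, in part by estimate, and not all the reads sequenced. RSEM divides reads that fit several genes by estimate, so near-identical copies are uncertain.

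Identifiers were named from GENCODE M21 (19970 of 20201 matched), and symbols from the member list matched by name. Groups follow the genotype labels, 6 libraries each. Over 66 pairs of libraries, chi-square per degree of freedom was at least 5.34, so no library was taken for a copy of another. Labels were compared two-sided by limma 3.58.1 (trended prior) on log2(normalized count + 1) for 12553 genes of mean 10 or more, with p-values adjusted by Benjamini and Hochberg's method and calls at 0.05. This scale understates the change of low genes. Sets of titles were compared in a fit with 4 block means and a spread shared by all 12 libraries. On the recovered reads edgeR 4.0.16 (quasi-likelihood) called 1105 genes lower and 1306 higher between the labels and DESeq2 1.42.0 called 1356 and 1431, against 1139 and 1277 by limma, which stayed the main test because the design had assumed normalized values. Other alternatives were pseudocounts of 0.5 and 10, a minimum mean of 50 or none, upper-quartile, quantile and TMM scaling, 8 abundant genes left out, library weights, the title set as covariate and each library left out. The steps were tested on simulated data. The label test found 51% of simulated 1.5-fold changes and 90% of 2-fold ones, with 7 false calls. The interaction test found 73% of 3-fold changes placed in 1 set of titles, with 8 false calls. Smaller differences can therefore be missed. The simulated sets of titles had no other difference in level. Floors of 3 reads cover counting error only.

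The members and gene lists were chosen with earlier results of these data known. Values in each library are given for the 4 members of highest mean, the 4 called members of largest fall, Stat2 and the IRF genes; the rest by means, ranges and counts, and listed genes outside the members by counts with up to 3 called genes in each direction. Promoters are RefSeq windows on GRCm38.p6, and the 10 members without one are Dhx58, Zbp1, Oas2, Mx1, Mx2, Usp18, Parp9, Parp14, Ifi27 and Rtp4. The list of receptor kinases and signal transducers is not reported here. R 4.3.3 and Python 3.11.15 were used.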

Additional observations from a re-analysis of the deposited data

Results flagged for a closer look

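In 4 of the 96 groups of 6 libraries (48 members in each of 2 labels), 1 library stood apart from the others by Dixon's criterion (a gap over 0.625 of the group's range), and chance alone flags about 1 group in 20. Irf7 in myotube 4 was the lowest knockout-labelled value, at 1321 normalized counts against 1409 to 1439 in the others. Oas1a in myotube 5 was the highest knockout-labelled value, at 361 against 318 to 333. Oas2 in myotube 2, the library with the most genes at 0, was the lowest wildtype-labelled value, at 378 against 455 to 487. Ifi27 in myotube 4 was the highest knockout-labelled value, at 345 against 273 to 289.9.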

How the results depend on the processing

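No member was higher between the labels under any of the 24 alternatives. The 27 members lower became 21 (upper-quartile) to 39 (abundant genes left out), with 24 by edgeR and 27 by DESeq2. With 1 library left out they were 22 to 28. Of all genes, 1139 lower became 1037, 2201, 1105 and 1356 in that order, and 936 to 1254 with 1 library left out. Of the 27, 20 were called under all 24 alternatives and none reversed. The other 7 lost the call in 15 (Irf1), 13 (Oas1a), 12 (Gbp2), 9 (Irf7), 3 (Zbp1), 1 (Irf9) and 1 (Parp12) of them. For titles 1 to 6 the count of 19 became 35 with the abundant genes left out, 29 with quantile and 9 with upper-quartile scaling. Of all genes, 1001 lower there became 2301, 1057 and 603. With 1 library left out, the members' count was 12 to 25 and that of all genes 668 to 1017. For titles 7 to 12 the count of 25 became 38 with the abundant genes left out, and among all genes 959 became 1830. With 1 library left out, the members' count was 22 to 31 and that of all genes 501 to 1417. The interaction count of 0 became 4 with DESeq2 and stayed 0 when 1 library was left out. The cause was not tested, except that leaving out the abundant genes shifted all genes by -0.165 between the labels, and upper-quartile scaling by 0.064 in titles 1 to 6 and -0.13 in titles 7 to 12.

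The sign turned for members that had not passed: Ifitm3 (-0.0700 with the abundant genes left out, -0.177 with quantile scaling), Psmb8 (-0.0153 with the abundant genes left out, -0.0171 with library weights), B2m (-0.0809 with the abundant genes left out, -0.0227 with library weights, -0.258 with quantile scaling), Oasl2 (0.00342 with edgeR, -0.0310 to 0.0201 when 1 library was left out) and Samd9l (-0.186 to 0.0158 when 1 library was left out, above 0 only without myotube 4). Outside the members, Calr turned to -0.12 with quantile scaling. Ifitm2 and Psme1 lost the call with the abundant genes left out, quantile and upper-quartile scaling, Ptpn11 with the abundant genes left out and quantile scaling, and Calr with the abundant genes left out and upper-quartile scaling. No paired analysis was possible because the replicate numbers follow accession order and the labels tie no library of one label to a library of the other. Depth limits genes near the floor, such as Tnf and the interferon genes; Mx1, at 19.1 per kilobase, was the member with the fewest counts per length.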
